A study of Mus musculus with 4 samples.

Results

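Clustered histone genes supply the bulk of the histone protein that packs newly copied DNA during S phase. They are the protein-coding genes of the mouse annotation (GENCODE M21 on the mm10 build) whose symbols start with Hist1h, Hist2h, Hist3h or Hist4h, and there are 67 of them among 21938 protein-coding genes. Open chromatin at these genes was described in hearts of mouse embryos at embryonic day 9.5 by ATAC-seq, in which the transposase Tn5 tags DNA that is free of nucleosomes. Wild-type (WT) hearts were set against Smyd1-KO hearts, which had no SMYD1, a methyltransferase found in cardiac and skeletal muscle. The null allele was a conventional one, carried by every cell of the embryo and not by one lineage alone. Each genotype had 2 libraries, each made from 40000 viable cells of 4 pooled whole hearts with all their cell types, and no agent was given to either genotype. The data used here are 2 lists of peaks: 25745 peaks whose tags were 2-fold or more higher in Smyd1-KO hearts, called gained peaks, and 106 whose tags were 2-fold or more higher in WT hearts, called WT-enriched peaks.

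Each peak is 149 bp wide and carries a score from the authors, a level in tags with the libraries of a genotype pooled. It is not a plain count of tags, since the scores of the gained peaks come in steps of 0.5, with 12889 of 25745 not whole, and how they were scaled is not stated. The unit is written as tags below. The lists do not resolve single libraries. Scores therefore have no replicate error, library depths are not known from the lists, no test over samples could be made, and every count below is a description of these pooled libraries. A gained peak says that the pooled difference passed the authors' threshold, and the score is the level in Smyd1-KO hearts and not the size of the difference. The nearest gained peak was 9201 bp from a Smyd1 transcription start site (TSS), and the lists cannot check the genotype. Fewer cells of a type and less open chromatin per cell cannot be told apart in whole hearts.

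Nucleosomes hold pairs of the core histones H2A, H2B, H3 and H4, while the linker histone H1 binds the DNA between them. In the mouse, most of the genes lie in the Hist1 cluster on chromosome 13, with smaller clusters on chromosomes 3 (Hist2) and 11 (Hist3) and a lone H4 gene, Hist4h4, on chromosome 6. The genes are short, have mostly no introns, and give mRNAs that end in a stem-loop in place of a poly(A) tail. Many H2A and H2B genes stand back to back and share the DNA between them as their promoter. Known promoter elements of the family include a TATA box, CCAAT boxes, an octamer in H2B promoters that binds OCT1, and an element in H4 promoters that binds HINFP.

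The stretches of DNA on which the results turn are shown first, as read from the GRCm38.p6 genome, which has mm10 coordinates. Each ends before the 5′ ends annotated by GENCODE and RefSeq, so that it holds promoter sequence and not annotated transcript. Capitals mark exact matches, on either strand, to the octamer ATTTGCAT, to CCAAT, to TATAAA or to GGTCCG, the letters used here for the core of the H4 element. The first lies between Hist1h2ac and Hist1h2bc, at chr13:23683960-23684198 on the plus strand. It overlapped the gained peak with the highest score of the Hist1 cluster. The second is the shortest gap of a back-to-back pair, between Hist1h2ae and Hist1h2bg, at chr13:23571221-23571395. The third lies within the gap between Hist1h2ba and Hist1h2aa, known as histone genes of the testis, at chr13:23934182-23934411, and had no gained peak.
Hist1h2ac-Hist1h2bc: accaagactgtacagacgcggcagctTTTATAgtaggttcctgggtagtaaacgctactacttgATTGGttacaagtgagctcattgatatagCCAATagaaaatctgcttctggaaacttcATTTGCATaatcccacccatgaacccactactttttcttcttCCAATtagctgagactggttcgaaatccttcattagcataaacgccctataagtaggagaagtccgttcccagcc
Hist1h2ae-Hist1h2bg: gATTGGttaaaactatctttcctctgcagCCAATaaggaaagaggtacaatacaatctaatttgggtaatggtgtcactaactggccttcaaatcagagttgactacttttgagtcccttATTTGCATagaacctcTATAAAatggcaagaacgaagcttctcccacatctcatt
Hist1h2ba-Hist1h2aa: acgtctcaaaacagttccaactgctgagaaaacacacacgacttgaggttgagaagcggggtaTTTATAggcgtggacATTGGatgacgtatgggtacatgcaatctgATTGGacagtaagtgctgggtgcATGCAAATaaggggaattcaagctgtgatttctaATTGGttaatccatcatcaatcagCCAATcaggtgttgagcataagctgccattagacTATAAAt

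The next stretches are the 120 bases before H4 genes, read 5′ to 3′ along the gene. Hist1h4i (chr13:22041363-22041482, minus strand) and Hist4h4 (chr6:136804432-136804551, minus strand) had gained peaks. Hist1h4m (chr13:21811626-21811745, plus strand) and Hist1h4n (chr13:21832198-21832317, minus strand) are copies of each other, and only Hist1h4n had a gained peak. Both windows of the copies show the same run of letters moved by 1 base, because their annotated 5′ ends differ by 1 base.
Hist1h4i: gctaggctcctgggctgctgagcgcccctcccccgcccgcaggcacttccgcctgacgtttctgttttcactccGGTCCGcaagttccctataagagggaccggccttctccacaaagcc
Hist4h4: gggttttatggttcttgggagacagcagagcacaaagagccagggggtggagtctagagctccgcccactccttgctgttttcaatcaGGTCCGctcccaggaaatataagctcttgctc
Hist1h4m: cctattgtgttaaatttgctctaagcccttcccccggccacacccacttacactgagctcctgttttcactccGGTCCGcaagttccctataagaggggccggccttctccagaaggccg
Hist1h4n: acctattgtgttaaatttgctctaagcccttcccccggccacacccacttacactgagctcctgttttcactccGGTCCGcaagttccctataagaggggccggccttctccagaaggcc

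The last are the 120 bases before a linker histone gene with a gained peak, Hist1h1c (chr13:23738687-23738806, plus strand), and before Hist1h1t, the linker histone gene of the testis (chr13:23695691-23695810, plus strand), which had none.
Hist1h1c: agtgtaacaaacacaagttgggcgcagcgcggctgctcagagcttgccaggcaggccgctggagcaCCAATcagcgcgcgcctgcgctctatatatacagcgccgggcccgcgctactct
Hist1h1t: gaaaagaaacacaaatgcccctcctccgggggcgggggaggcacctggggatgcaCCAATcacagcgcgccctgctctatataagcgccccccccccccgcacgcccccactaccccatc

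Of the 67 histone genes, 50 (74.6%) had a gained peak within 1 kb of a TSS, against 48.1% of all protein-coding genes. The peak covered the TSS itself at 23 histone genes (34.3%), against 27.8% of all protein-coding genes. The 50 genes shared 48 distinct peaks, since 16 peaks lay within 1 kb of more than 1 histone gene, and 29 genes were at such a shared peak. The genes were also split by the base composition of the promoter. A window of 250 bases on each side of the 5′ end was called CpG-rich where its GC content was at least 50% and its CpG dinucleotides were at least 0.6 of the number its C and G content would give. Among CpG-rich genes, 39 of 52 histone genes (75%) had a gained peak, against 75.5% of all CpG-rich protein-coding genes, so the share at CpG-rich histone genes was near the background. Of the other 15 histone genes, 11 (73.3%) had a gained peak, against 23.3% of the other protein-coding genes. Of these 15 genes, 10 met the CpG limit and missed the class by their GC content alone, and 8 of the 10 had a gained peak, against 52.6% of all protein-coding genes of that kind. Some of the 11 genes were counted through a shared peak. Hist1h2ae and Hist1h2bg had the same peak. The peak of Hist2h2be covered the 5′ end of the CpG-rich Hist2h2ac, and that of Hist1h2be was also within 1 kb of the CpG-rich Hist1h1e.

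No histone gene had a WT-enriched peak within 1 kb (0 of 67), and only 1 protein-coding gene had one (0.00456%), so this count does not set the histone genes apart. The WT-enriched list is short: with 0 of its 106 peaks at histone genes, the exact two-sided 95% interval of the share reaches 3.42% (counting error only). The histone gene nearest to a WT-enriched peak was Hist1h2bl, at 7.96 Mb. Of the WT-enriched peaks, 20 were on chromosome 13, and none of them lay inside the histone clusters.

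**Figure D1:**
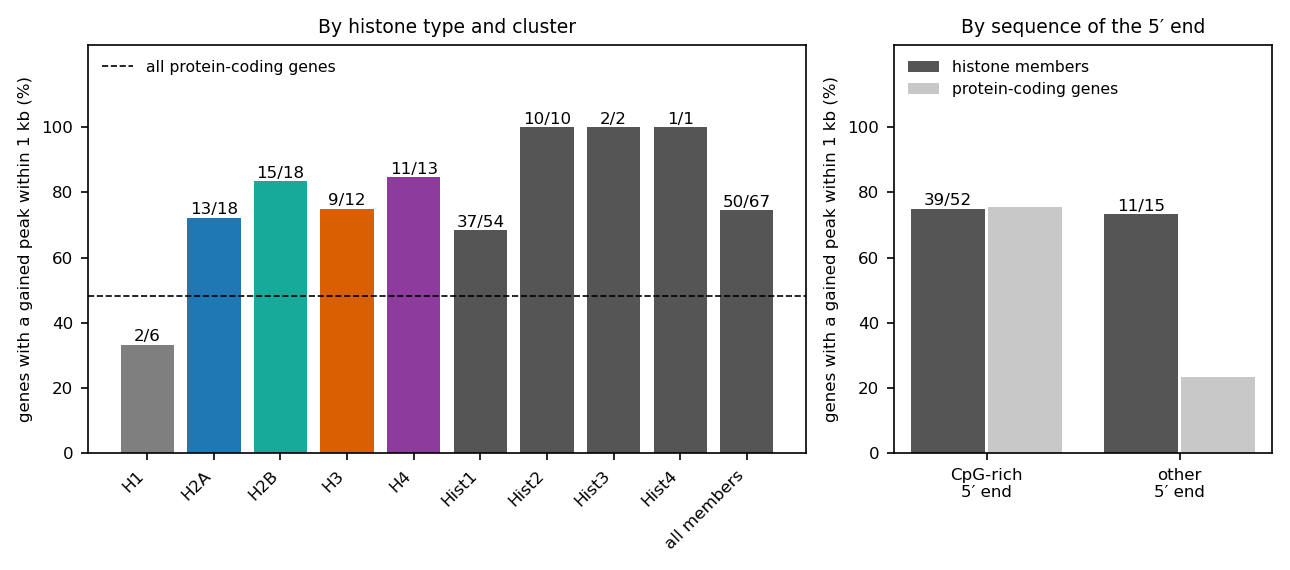
Share of genes with a gained peak within 1 kb of a TSS, in percent, by histone type, by cluster and for all 67 members (left), with the numbers above the bars and the 48.1% of all protein-coding genes as a dashed line, and split by the sequence of the 5′ end (right). Linker histones (2 of 6) sit below the dashed line, the other types above it, and CpG-rich members stand level with CpG-rich genes at large.

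The counts by histone type are given beside the 48.1% of all protein-coding genes and the 75.5% of CpG-rich ones. H4 genes had one in 11 of 13 cases (84.6%), H2B genes in 15 of 18 (83.3%), H3 genes in 9 of 12 (75%) and H2A genes in 13 of 18 (72.2%). Linker histone H1 genes had one in 2 of 6 cases. That count was 3 of 6 from start codons and 6 of 6 within 3 kb of a TSS, some through peaks at the 5′ ends of other histone genes. By cluster, the counts were 37 of 54 in Hist1, 10 of 10 in Hist2, 2 of 2 in Hist3 and 1 of 1 in Hist4, so that every member without a peak lay in Hist1. The Hist1 genes fall into 2 groups more than 200 kb apart. Group A (chr13:21714763-22044676) had a gained peak at 15 of 23 genes, and group B (chr13:23530050-23935851) at 22 of 31. The types were also counted without peaks in which over 10% of 36-base words recur in the genome. This left 8 H4, 15 H2B, 6 H3, 11 H2A and 2 H1 genes with a gained peak, against 46.9% of all protein-coding genes.

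Scores were read as the strongest gained peak within 1 kb of each gene. Their median over the 50 histone genes was 414.75 tags, with a range from 87 to 815. Over all protein-coding genes with a gained peak the median was 469.5 tags, with quartiles of 305.5 and 699.5. Only 3 histone genes were above that upper quartile, 14 were above the median and 12 were below the lower quartile. These are counts of genes and not of peaks, since Hist1h2ac and Hist1h2bc, both among the 3, shared a single peak. The medians by type were 439 tags for H2A, 438 for H2B, 427 for the 2 H1 genes, 398 for H3 and 308.5 for H4. With the nearest peak of each gene in place of the strongest, the H3 median was 270.5 and the other 4 were the same, so that H3 and H4 changed places. H2A and H2B genes share peaks, so their medians are not independent of each other.

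**Figure D2:**
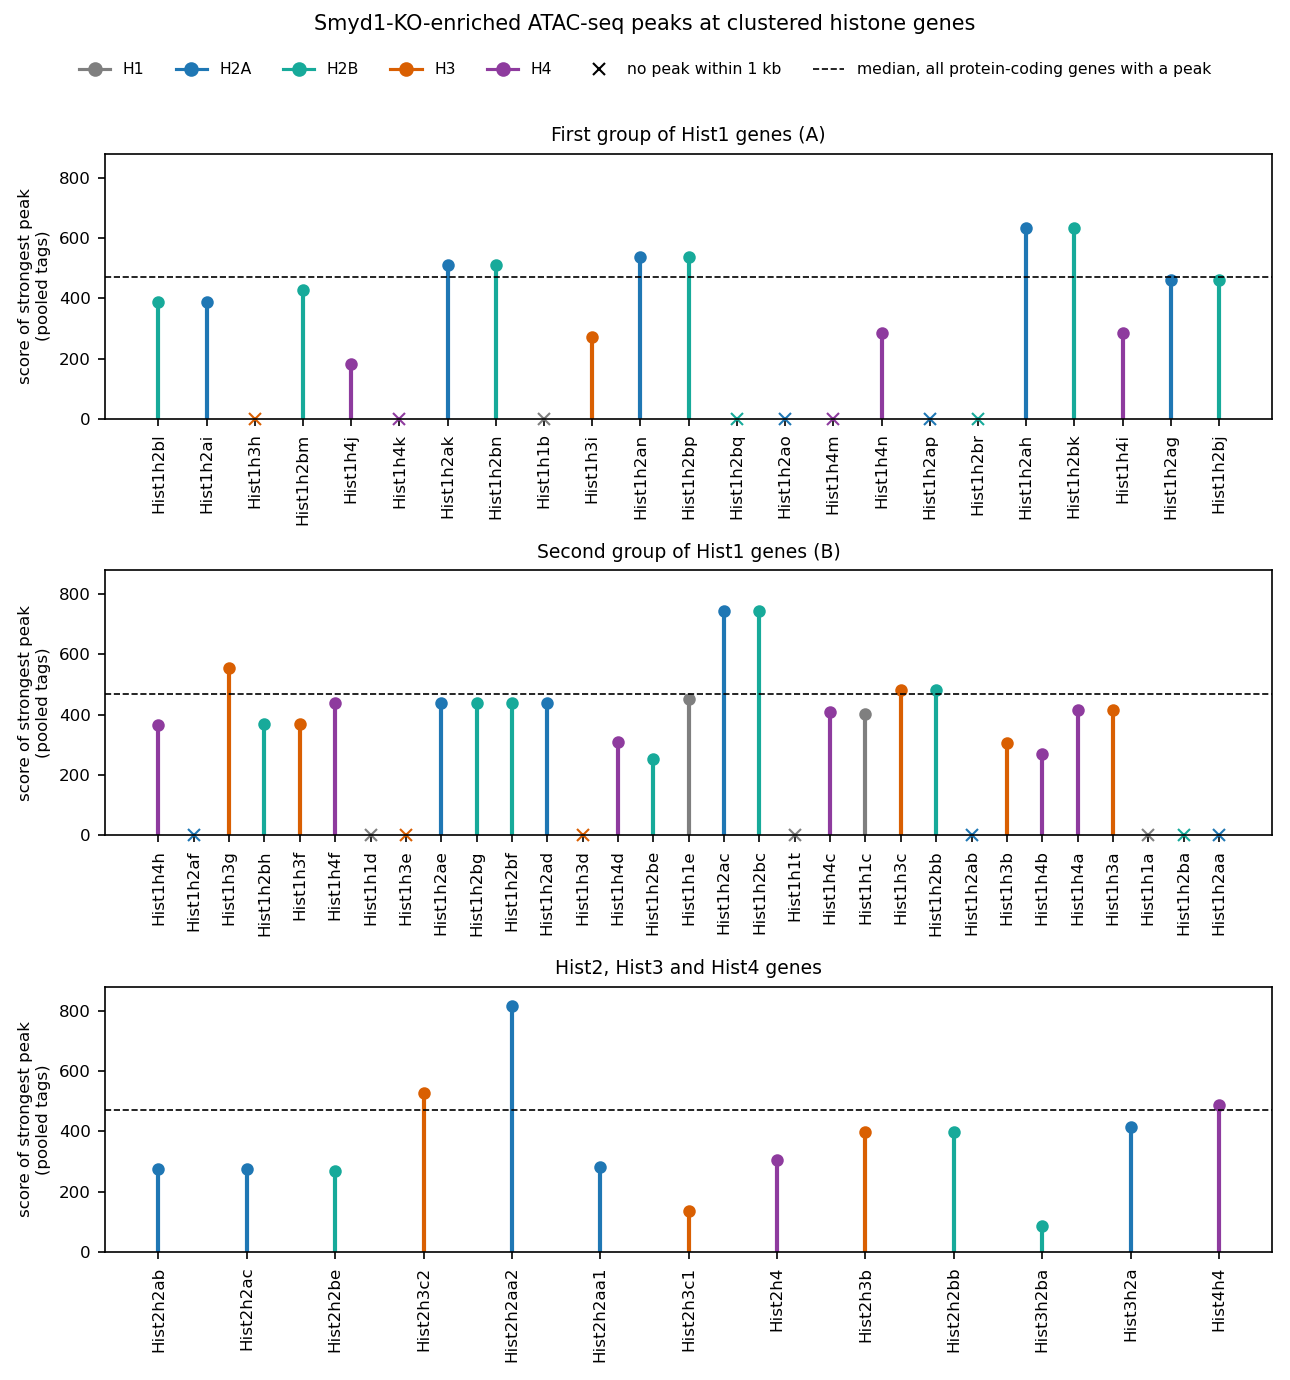
Score of the strongest gained peak within 1 kb of each histone gene, in pooled tags, in the order of the genes along each cluster, coloured by type, with crosses for genes without one. Back-to-back H2A and H2B genes with a gained peak appear as neighbours of equal height, save Hist2h2ac (274.5 tags) and Hist2h2be (267.5 tags). Most points lie below the dashed line, the median of 469.5 tags over all protein-coding genes with a gained peak.

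H2A and H2B form the dimers that flank the H3-H4 core of the nucleosome, and 24 of their 36 genes stood back to back in 12 pairs, with 175 to 305 bp between the annotated 5′ ends (median 258.5). A single gained peak overlapped the gap in 9 of the 12 pairs. The highest score of these was 745.5 tags, between Hist1h2ac and Hist1h2bc (chr13:23683915-23684063). It covered the 5′ end of Hist1h2ac, and its centre was 41 bp upstream of that end and 210 bp upstream of the 5′ end of Hist1h2bc. In the sequence shown above, the octamer starts at position 123 of 239, beyond the end of this peak. Of the 4 gaps with both a gained peak and an octamer, the peak overlapped the octamer in 1, between Hist1h2ah and Hist1h2bk.

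The peak between Hist1h2ah and Hist1h2bk had 633.5 tags, and that between Hist1h2an and Hist1h2bp had 537. Hist1h2ak and Hist1h2bn shared a peak of 510 tags, and Hist1h2ag and Hist1h2bj one of 459. These 4 pairs all belong to group A of Hist1. In group B, the pairs Hist1h2ad and Hist1h2bf (439 tags) and Hist1h2ae and Hist1h2bg (438 tags) differed by 1 tag. The remaining pairs were Hist1h2ai and Hist1h2bl, with 389 tags, and Hist2h2ac and Hist2h2be, with 267.5, the lowest of the 9. None of the 9 peaks held a 36-base word that recurs in the genome, so every word of that length inside them is unique.

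The peak lay nearer to the 5′ end of the H2A gene in 6 pairs and nearer to that of the H2B gene in 3. Annotated 5′ ends of these short genes are uneven: 11 of the 67 genes have theirs at the start codon itself. Measured from the start codons, the split was 5 against 4, and the nearer gene was the same in 8 of the 9 pairs. The exception was the pair Hist1h2ad and Hist1h2bf.

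**Figure D3:**
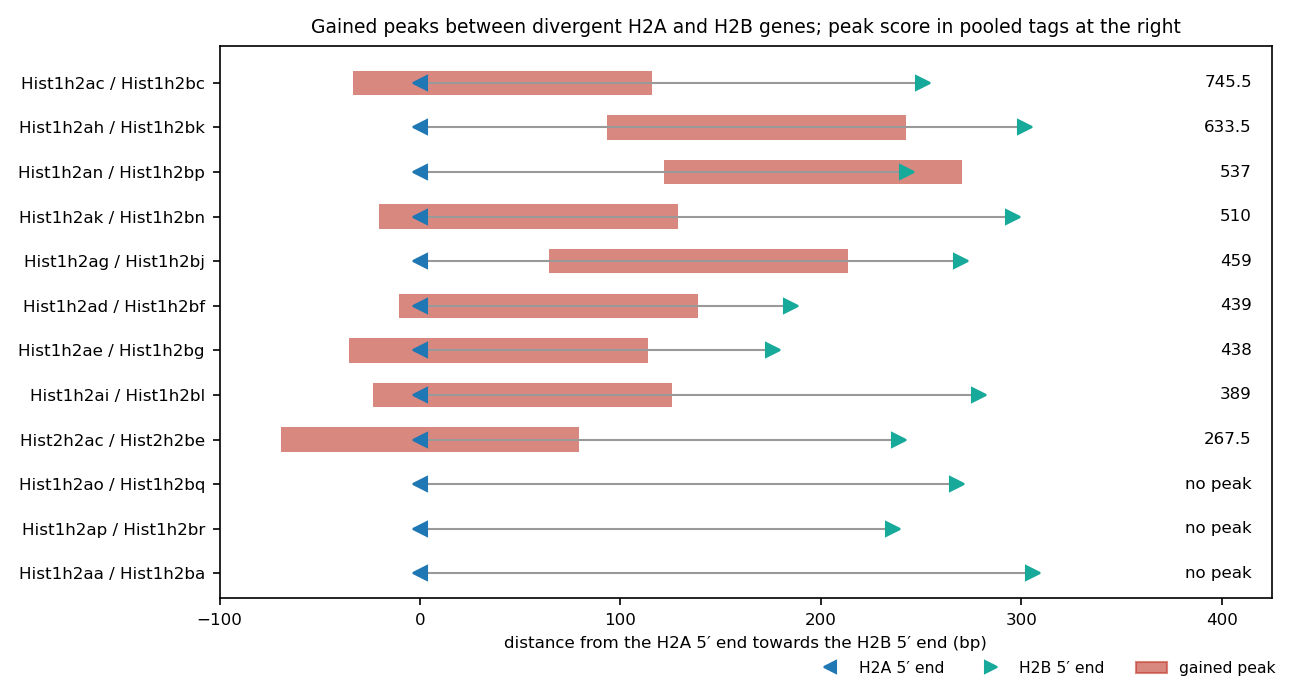
The 12 back-to-back pairs, with the distance in bp from the 5′ end of the H2A gene (0) to that of the H2B gene on the x axis, the gained peak as a bar and its score in pooled tags at the right. The 9 peaks all overlap the gap, 6 of them cover the H2A 5′ end, and the last 3 pairs have none.

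The 3 pairs without a gained peak were of unlike kinds. Hist1h2ao with Hist1h2bq, and Hist1h2ap with Hist1h2br, are copies of each other: the 300 bases before the start codon were 100% identical, and every 36-base word around the 5′ ends occurs more than once in the genome. Hist1h2aa and Hist1h2ba, the testis pair, had nearly unique sequence (0% and 2.79% repeated words). Their nearest gained peak was 18180 and 17874 bp away. Their gap holds the octamer, CCAAT and TATAAA. Of the 9 gaps with a gained peak, 4 held the octamer, 6 held TATAAA and 9 held CCAAT.

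Of the 12 H2A and H2B genes outside such pairs, 10 had a gained peak. The 2 without one were Hist1h2ab and Hist1h2af, whose nearest gained peaks were 1080 and 1288 bp away. These peaks lay at the neighbouring H3 genes, Hist1h3b (305.5 tags) and Hist1h3g (555.5 tags). Among Hist1 H2A genes with a peak, the lowest score was that of Hist1h2ai (389), and among Hist1 H2B genes that of Hist1h2be (254.5). The latter value needs care. The annotated 5′ end of Hist1h2be lies 35168 bases before its start codon, beside Hist1h1e, and the peak there is also within 1 kb of Hist1h1e. A second gained peak (chr13:23585921-23586069, 250 tags) covered the start codon of Hist1h2be.

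H3 and H4 form the tetramer at the centre of the nucleosome, and their tails carry many of the known histone marks, among them the H3 lysine that SMYD1 is known to methylate. Hist1h3g had the highest score of the Hist1 H3 genes (555.5 tags, centred 154 bp upstream), and Hist1h3i the lowest (270.5 tags, centred 52 bp downstream). The Hist1h3i peak was 80.7% repeated words. Hist1h3f had peaks of 368 and 351.5 tags, both of which also lay within 1 kb of its back-to-back neighbour Hist1h2bh. Hist1h3c had a peak of its own with 187 tags, and the 481 tags listed for it came from a peak 945 bp upstream that was centred 187 bp upstream of Hist1h2bb. In the same way, the strongest peak at Hist1h3a (416 tags) was the promoter peak of Hist1h4a, while the peak at its own 5′ end had 237.5 tags.

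The H3 genes without a gained peak were Hist1h3d, Hist1h3e and Hist1h3h. Their nearest gained peaks were 1372, 6139 and 1214 bp from the 5′ end. For Hist1h3d and Hist1h3h these were the shared promoter peaks of the neighbouring H2A and H2B pairs (439 and 389 tags).

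Among H4 genes, Hist1h4f had the highest Hist1 score (440 tags) and Hist1h4j the lowest (183.5). Hist1h4j was the only histone gene with 3 gained peaks, of 177.5, 177.5 and 183.5 tags, centred 816 and 49 bp upstream and 334 bp downstream of the 5′ end. Hist1h4h had peaks of 367 and 320.5 tags, and Hist1h4n of 286 and 103. Hist1h4k and Hist1h4m had none. The nearest gained peak to Hist1h4k was 3302 bp away, and 56.2% of the words around its 5′ end are repeated.

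Linker histones are the least alike of the 5 types, and each H1 gene of Hist1 codes for its own subtype. Hist1h1e had peaks of 452 and 254.5 tags, centred 76 and 889 bp downstream of the 5′ end. Hist1h1c had peaks of 402 and 395 tags, centred 11 bp upstream and 919 bp downstream. Both genes thus had a peak near the 5′ end and another in the annotated 3′ UTR or an intron.

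The other 4 H1 genes had no gained peak within 1 kb, although repeated words made up 0% of the windows around their 5′ ends. The nearest gained peak was 1135 bp from Hist1h1b (176 tags), 1233 bp from Hist1h1a (237.5 tags), 2540 bp from Hist1h1t (409 tags) and 1569 bp from Hist1h1d (440 tags). Those of 237.5, 409 and 440 tags were the peaks at the 5′ ends of Hist1h3a, Hist1h4c and Hist1h4f. The value for Hist1h1d turned on the annotation. Its 5′ end in GENCODE is 1770 bp upstream of that in RefSeq, and a gained peak of 299.5 tags (chr13:23554963-23555111) covered the start codon. With the start codon as reference point, 3 of 6 H1 genes had a gained peak within 1 kb.

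Every gene of the smaller clusters had a gained peak. In Hist2 on chromosome 3, the scores of the strongest peak were 815 tags for Hist2h2aa2, 527 for Hist2h3c2, 398 for Hist2h3b and Hist2h2bb and 305.5 for Hist2h4. They were 282.5 for Hist2h2aa1, 274.5 for Hist2h2ab and Hist2h2ac, 267.5 for Hist2h2be and 137.5 for Hist2h3c1. The 398 tags of Hist2h3b came from the peak upstream of Hist2h2bb, and the peak at its own 5′ end had 142.5 tags. The 274.5-tag peak lay in the coding sequence of Hist2h2ab, and the 267.5-tag peak between Hist2h2ac and Hist2h2be. Hist2h4 had a second peak of 201.5 tags, centred 963 bp downstream.

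In Hist3, Hist3h2a had peaks of 337.5 tags upstream of the gene and 413.5 tags in its coding sequence. Hist3h2ba had 87 tags, the lowest of all 50 genes. Hist4h4, the only histone gene of its cluster, had 487.5 tags, in a peak centred 360 bp downstream of its 5′ end.

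In all, 14 histone genes had at least 2 gained peaks within 1 kb, against 8.37% of all protein-coding genes. At 8 of the 14, a peak was also counted at a neighbouring histone gene. The other 6 were Hist1h1c, Hist1h4h, Hist1h4j, Hist1h4n, Hist2h4 and Hist3h2a.

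The position of the nearest peak was described by type, with no test. Its centre was upstream of the annotated 5′ end in 12 of 13 H2A genes and 14 of 15 H2B genes. Of these 26 genes, 18 were in the back-to-back pairs, where 9 shared peaks in the gaps are each counted at both genes, and among the H2A and H2B genes outside those pairs it was 8 of 10. The centre was upstream in 3 of 9 H3 genes and 3 of 11 H4 genes. The median position was 54 bp upstream for H2A and 137 bp upstream for H2B, and 24 bp downstream for H3 and 29 bp downstream for H4. Over all protein-coding genes with a gained peak it was 5 bp downstream, with 48.2% of centres upstream. From the start codon, the medians were 151 bp upstream for H2A, 171 for H2B and 89 for H3, while H4 peaks were centred 21 bp inside the coding sequence. Of the 48 distinct peaks, 25 were centred upstream of the gene, 12 in coding sequence, 6 in a 5′ UTR, 3 in a 3′ UTR or intron and 2 downstream of the gene.

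**Figure D4:**
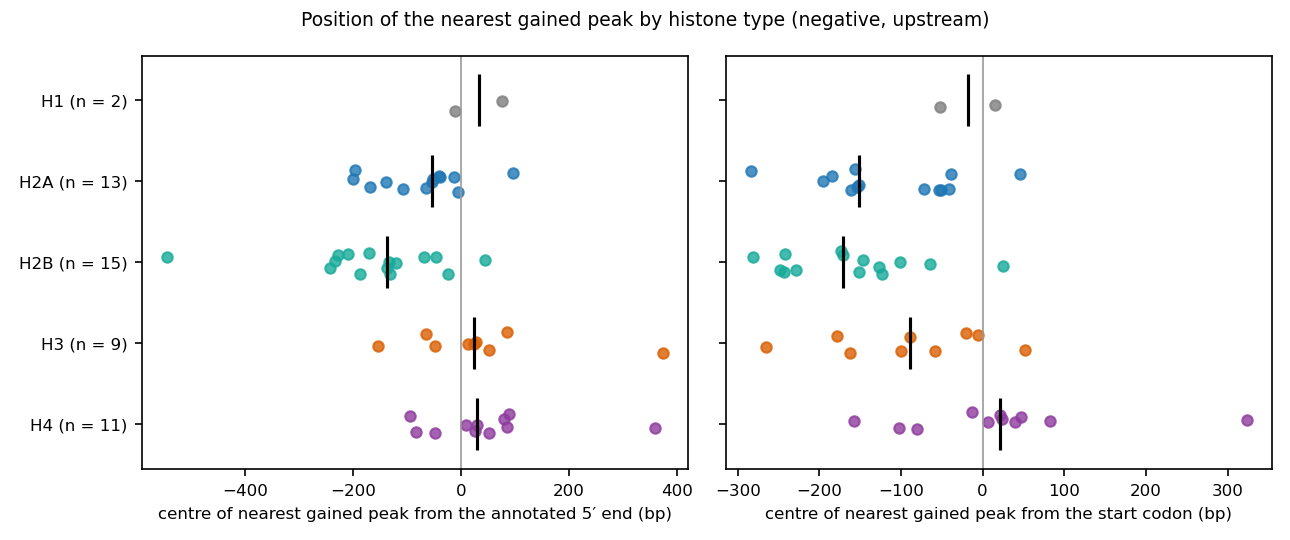
Distance in bp from the annotated 5′ end (left) and from the start codon (right) to the centre of the nearest gained peak, 1 point per gene, with black bars for the medians of each type and negative values upstream. H2A and H2B points lie almost all upstream of the 5′ end, and H3 and H4 points gather around and after it; Hist1h2be, whose start codon is 35168 bases from its 5′ end, is not drawn at the right but counts in the median.

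Some histone genes are near-identical copies, and how the authors treated reads that fit several places is not stated. The share of 36-base words that occur more than once in the genome was counted in the 250 bases on each side of each 5′ end. With at most 10% repeated words, 8 of 14 genes had a gained peak. Between 10 and 50%, 37 of 42 had one, and above 50%, 5 of 11. The share over all protein-coding genes is 48.1%, and it was not computed by repeated words. Hist1h1a, Hist1h1b, Hist1h1d, Hist1h1t, Hist1h2aa and Hist1h2ba had nearly unique 5′ ends, while Hist1h2ao, Hist1h2ap, Hist1h2bq, Hist1h2br, Hist1h4k and Hist1h4m had mostly repeated ones.

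Copies with near-identical sequence had unlike scores. Hist1h4n had 286 tags and its copy Hist1h4m no peak, although the 300 bases before their start codons were 99.7% identical and the first 300 coding bases 100% identical. Hist2h2aa2 had 815 tags and its copy Hist2h2aa1 282.5, with 99.3% identity upstream. Hist2h3c2 had 527 tags and Hist2h3c1 137.5, with 99.7% identity upstream. The highest score of the family therefore stands on repeated sequence, and the highest score on unique sequence was the 745.5 tags of Hist1h2ac and Hist1h2bc. For comparison, Hist1h2ac and Hist1h2ae, which are not copies of this kind, were 97.7% identical over the first 300 coding bases and 29.3% identical, position by position, over the 300 bases before them, counted without aligning the sequences.

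Of the 48 distinct peaks, 34 held no repeated word, 14 held more than 10% and 6 of these more than 50%. With the 14 left out, 42 of 67 genes (62.7%) had a gained peak, against 46.9% of all protein-coding genes. The genes lost were Hist1h3i, Hist1h4f, Hist1h4i, Hist1h4n, Hist2h2aa1, Hist2h2aa2, Hist2h3c1 and Hist2h3c2.

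**Figure D5:**
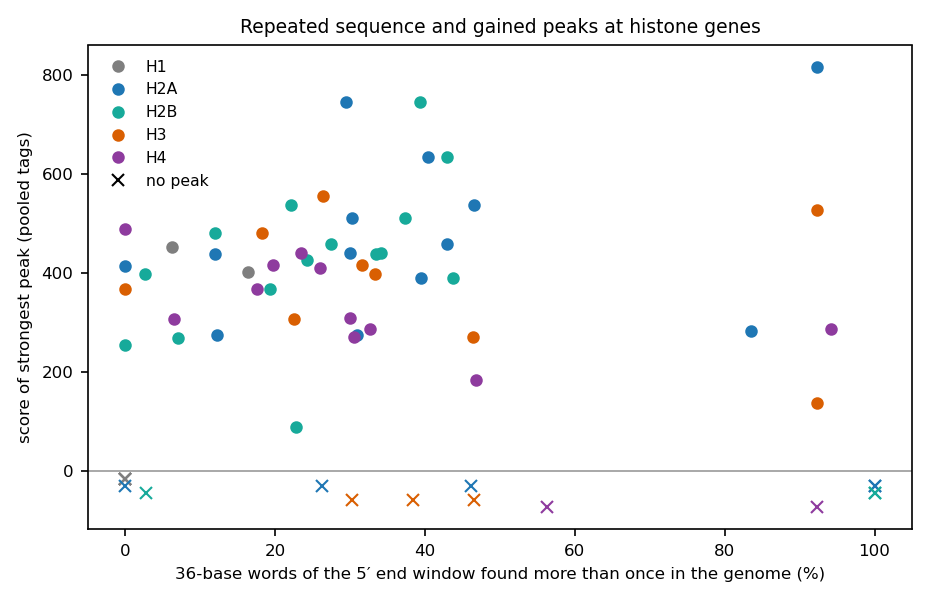
Score of the strongest gained peak within 1 kb, in pooled tags, against the share of 36-base words in the 500 bases around the 5′ end that occur more than once in the genome, in percent, 1 point per gene coloured by type. Crosses below the line are the 17 genes without a gained peak, staggered by type: 6 have at most 10% repeated words, 5 between 10 and 50% and 6 more than 50%.

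The promoter sequences shared letters that the choice of genes did not use. In the 250 bases before the 5′ end, on either strand, the octamer ATTTGCAT occurred in 15 of 67 histone genes and in 1.45% of all protein-coding genes. It was found in 7 H2A and 8 H2B genes and in no gene of another type. Neighbours share a gap, so these 15 genes hold 10 distinct sites. Of the 15 genes, 12 (80%) had a gained peak, and of the 52 histone genes without the octamer 38 did. Over all protein-coding genes with the octamer the share was 42.1%. CCAAT occurred in 54 of 67 genes, all H2A and H2B genes included, against 36% of all protein-coding genes. TATAAA occurred in 34 of 67, against 11.5%, and 24 of these (70.6%) had a gained peak, as did 26 of the 33 without it. Over all protein-coding genes with TATAAA the share was 26.2%. GGTCCG occurred in 12 of 13 H4 genes and in 2 other histone genes, against 7.69% of all genes, at a median of 49 bases before the H4 5′ end. The H4 gene without it in this window was Hist1h4a, which had a gained peak of 416 tags. None of the 4 strings contains another, a match is a description of letters and not of a bound site, and its part in the peaks was not tested.

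Most gained peaks in the clusters lay near histone gene TSSs. The clusters, taken with 1 kb on each side, span 802.8 kb and held 64 gained peaks, of which 48 were within 1 kb of a histone gene TSS. Another 4 lay inside Hist1h1d or Hist1h2be, whose annotated 5′ ends are far from the coding sequence, and 12 lay elsewhere. The whole list holds 9.72 gained peaks per Mb of genome, a density not matched for promoters. The clusters are drawn around histone genes, and the share of their length within 1 kb of a TSS is not given here. The median score was 359.25 tags for the 48, 224.75 for the 4 and 106.75 for the 12. In group A of Hist1 the 8 peaks elsewhere had a median of 141.5 tags, against 286 at the TSSs, and in group B the 3 peaks elsewhere one of 43, against 395. Of 11 other protein-coding genes inside the clusters, 3 had a gained peak within 1 kb, against the same 48.1%. The peaks at Bola1 and Trim17 were ones already counted at Hist2h2ab and Hist3h2a, and only that at Zfp184 (435 tags) was apart from the histone genes.

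Histone genes outside the clusters and the genes that serve histone supply were counted in the same way. The background is the same 48.1%, with 75.5% for CpG-rich and 23.3% for other protein-coding genes. Replacement histones, which are made outside S phase and from mRNAs with poly(A) tails, had a gained peak in 8 of 11 genes. The highest score was that of H2afv (1065.5 tags), which codes for an H2A.Z protein, and H2afj, H2afx and H2afy had no peak. The germline histones outside the clusters, H1fnt, H1foo and Hils1, had none. All 8 genes for transcription of histone genes had a gained peak, with a median of 905 tags. The highest was Nfya (1224.5), a subunit of the factor that binds CCAAT, and Npat, the coactivator of histone genes at S phase entry, had 1135.5.

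The 9 genes of histone mRNA 3′ end processing all had one, with the highest score at Slbp (1047 tags), which codes for the stem-loop binding protein. Histone chaperones had one in 9 of 11 genes, with Asf1b highest (1452 tags) and Hat1 and Ubn1 without. S-phase genes had one in 13 of 15, with Gins2, a part of the replicative helicase, highest (1556 tags) and Mcm2 and Tyms without. The median scores of these lists, from 541.25 tags for replacement histones to 905, were above the 414.75 of the clustered genes. Over all protein-coding genes with a gained peak the median was 469.5 tags, with quartiles of 305.5 and 699.5.

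Cell type markers were counted because whole hearts hold several cell types, and their counts stand against the same 48.1%, or 75.5% of CpG-rich and 23.3% of other genes. Of 10 cardiomyocyte markers, 9 had a gained peak, with Myl4 highest (700.5 tags) and Nkx2-5 without. Of 6 endothelial markers, 1 had one (Tek, 79.5 tags), and Cdh5, Emcn, Kdr, Pecam1 and Tie1 had none. Of 5 erythroid markers (Alas2, Hba-x, Hbb-bh1, Hbb-y and Klf1), none had one, and a further marker of that list is not covered by this count. No gene counted here had a WT-enriched peak. The lists of differential peaks give no level at genes without a peak, so the tissue label could not be checked by levels, and the part of cell makeup or of the share of cells in S phase in the result was not tested.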

How the data were processed

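ATAC-seq was performed on 4 libraries, 2 per genotype. Per the labels and methods, the authors aligned reads to mm10 with BWA-MEM, called peaks with HOMER (v4.10.3), pooled the libraries of a genotype, kept peaks that differed at least 2-fold, and annotated them with ChIPseeker (v1.20.0). The deposited value of a peak is a signal, a level in tags with libraries pooled, in the genotype where the peak is higher. It comes in steps of 0.5 in the Smyd1-KO list, and its scaling is not given in the sources used here. The treatment of duplicate and multiply aligned reads and of the Tn5 offset is not given in the sources used here. The scores of the WT-enriched list appeared to be scaled, so scores were not compared across lists. Genes came from GENCODE M21, protein-coding only, with TSSs of all their transcripts. Distances ran from the nearer edge of a peak to a TSS, and positions from its centre to the 5′ end of the gene. Words of 36 bases were counted on both strands of the 21 assembled chromosomes, and the counting was tested on simulated data. RefSeq TSSs (GRCm38.p6) were matched for 62 members.

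The members and gene lists were chosen with earlier results of these data known. Every member is accounted for. Named with values are all Hist2, Hist3 and Hist4 members; per type in Hist1 the highest and lowest score; members with no peak or with 2 or more; the member nearest a WT-enriched peak; and, of other lists, the highest score and every gene with no peak. Other genes were named after their values were seen, and 1 erythroid marker is not reported here. Because the lists pool the libraries, no test over samples was run. Alternatives changed the distance, the TSS set, the score minimum and the limit on repeated words. Analyses used Python 3.11.15, numpy 2.4.6, pandas 2.3.3, scipy 1.17.1, numba 0.67.0 and matplotlib 3.10.9.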

Additional observations from a re-analysis of the deposited data

How the results depend on the processing

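The count of 50 genes with a gained peak was the same at 500 bp, from the gene 5′ end alone, with protein-coding transcripts only and from the peak centre. It was 60 at 3 kb (89.6%, against 51.2% of all genes), 48 with scores at or above the list median of 180.5 (71.6%, against 43.6%), 42 without peaks of over 10% repeated words, 52 with pseudogenes added, and, in alternatives chosen after seeing the data, 46 with RefSeq TSSs (the 5 lost genes had no matched RefSeq entry) and 51 with start codons. Where the peak had to cover the TSS, the count was 23 genes and 23 peaks (H1 1, H2A 7, H2B 4, H4 5; Hist1 17, Hist2 5, Hist3 1, Hist4 0), with a median score of 389. The median score was 405.5 at 500 bp, 416 at 3 kb, with the score minimum and without repeated peaks, 411.25 from the centre and 413.5 with start codons. At 3 kb all 6 H1 genes had a peak, some through peaks at the 5′ ends of other histone genes. The score minimum left 1 Hist3 gene, and leaving out repeated peaks left 6 Hist2 genes. The other 119 recomputed values were counts within 1.5 times the reported count or medians that did not move.

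No paired analysis was possible because the lists pool the libraries of each genotype, and for the same reason leaving out each replicate was not run. Depth could not be assessed, and peaks that did not pass the threshold are not analysed here, so nothing is known here of how open a gene without a gained peak was.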
